A study of Mus musculus with 27 samples.

Results

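The cortex of the hemisphere opposite a middle cerebral artery occlusion (MCAO) was compared with sham cortex early in recovery, over all miRNA entries of the series. MCAO is a stroke model in which a suture blocks the artery feeding most of the lateral cortex. The members were chosen by label: the 3 contralateral libraries at 3 h and the 3 at 6 h were pooled and set against the 3 sham libraries. They are 9 of the series' 27 libraries, and all 1842 entries of the count table were used, of which 1470 passed the low-count filter and were tested. The animals were wild-type C57BL6 mice, a common inbred strain, aged 7 to 8 weeks. In the contralateral groups the artery of the other hemisphere had been blocked for 35 min and the common carotid artery ligated, and tissue was taken after 3 or 6 h of recovery. Sham mice had the same anaesthesia and had their arteries exposed, with no filament put in. The sources used here do not give the recovery time or the hemisphere of the sham samples, so time since surgery, side and remote effects of the occlusion cannot be told apart. Each replicate number is a separate day of surgery, shared by all groups.

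MicroRNAs are short RNAs that guide Argonaute proteins to messenger RNAs, mainly through the seed, bases 2 to 8 of the mature strand, and lower the output of the matched messages. The cortex opposite a focal stroke keeps its own blood supply but is wired to the injured side through the corpus callosum, and it often serves as the internal control. Comparing it with sham shows whether its miRNAs differ from those of animals without an occlusion.

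The results turn on 3 sets of sequences. Mature sequences are those of RefSeq on mouse build GRCm38.p6, with the seed in capitals, and 1587 of the 1842 entries matched a RefSeq mature sequence by name. The first set is the miR-183 and miR-200 clusters, which held the largest differences from sham. They are printed because shared seeds group them: miR-200b, miR-200c and miR-429 carry AAUACUG, and miR-200a and miR-141 carry AACACUG.
miR-200b-3p: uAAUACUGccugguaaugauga
miR-200c-3p: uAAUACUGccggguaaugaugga
miR-429-3p: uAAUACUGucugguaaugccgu
miR-200a-3p: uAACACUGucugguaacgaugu
miR-141-3p: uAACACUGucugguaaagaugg
miR-182-5p: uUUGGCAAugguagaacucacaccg
miR-96-5p: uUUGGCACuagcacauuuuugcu
miR-183-5p: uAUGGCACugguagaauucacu

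The 8 members come from 3 loci, all on the minus strand. The mature strands of miR-200b at chr4:156055685-156055706, miR-200a at chr4:156054911-156054932 and miR-429 at chr4:156053916-156053937 lie in introns of Ttll10. They also overlap the gene model Gm13648, miR-429 in an exon and miR-200a and miR-200b in introns. The mature strands of miR-200c at chr6:124718324-124718346 and miR-141 at chr6:124717917-124717938 lie in introns of the gene model Gm15884, and miR-141 also lies in an exon of Gm29008. Those of miR-183 at chr6:30169711-30169732, miR-96 at chr6:30169506-30169528 and miR-182 at chr6:30165962-30165986 overlap no other annotated gene.

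The second set is the miRNAs that were lower in contralateral than in ipsilateral cortex and that have a RefSeq mature sequence. They are printed because their median GC content was above that of all tested entries with a sequence.
miR-7687-3p: cCACUCAGucgccccgccaca
miR-1934-5p: uCUGGUCCccugcuucguccucu
miR-701-5p: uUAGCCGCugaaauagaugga
miR-6968-5p: aGGGGGCGagggggcccugugg
miR-2861: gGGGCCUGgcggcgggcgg
miR-8109: gCGCCGCGugccggccgcggg
miR-6538: cGCGGGCUccggggcggcg
miR-7009-3p: uCUUUUCCccucucccugcag

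The third set holds the 3 most abundant miRNAs by mean level over the 9 libraries.
miR-181a-5p: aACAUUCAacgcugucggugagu
miR-128-3p: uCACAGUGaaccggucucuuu
miR-127-3p: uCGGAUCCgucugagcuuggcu

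Total counts ran from 876108 to 1903416 in the 9 libraries, and the 10 most abundant entries took 57.0% ± 1.40 of the counts in early contralateral cortex (SD, n = 6) and 56.2% ± 1.22 in sham cortex (SD, n = 3). Levels are in CPM, counts scaled by the library total and its TMM factor, and a call is an adjusted p under 0.05. On average, libraries of the same day of surgery were closer to each other than libraries of the same treatment. Over the 261 entries of at least 100 CPM, the median absolute log2 difference averaged 0.20 over the 6 contralateral and sham pairs of the same day, with a range of 0.15 to 0.24. It averaged 0.38 over the 12 such pairs from different days, 0.36 over the 6 pairs of contralateral libraries of the same time, and 0.37 over the 3 pairs of sham libraries. Between contralateral 3 h and 6 h libraries it averaged 0.28 over the 3 same-day pairs and 0.42 over the 6 pairs from different days. The same-day range of 0.23 to 0.35 overlapped that of the same-time pairs, 0.23 to 0.52. Among the 9 libraries, sham replicate 2 stood apart in 1 group of miRNAs, described below. Contralateral 3 h replicate 1, the deepest library, was the farthest from the other 8. Whether a library is 1 animal or a pool is not stated, so p-values measure the spread between these samples only.

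No miRNA passed the test between early contralateral and sham cortex. In edgeR's quasi-likelihood test with Benjamini-Hochberg adjustment 0 of 1470 entries were called, which is 0%, and the smallest adjusted p was 0.0591, for miR-141-3p. At an unadjusted p under 0.05 there were 25 entries (1.7%), 8 higher and 17 lower, where 73.5 would be expected from that threshold alone if no entry differed. DESeq2 also called 0 entries, with 19 at an unadjusted p under 0.05 and a smallest adjusted p of 0.309. All 6 contralateral libraries lay above all 3 sham libraries for 8 entries, 0.544% of those tested, and below them for 11 entries, 0.748%.

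The intervals say how large a difference the libraries leave room for. The median log2 fold change over all 1470 entries was -0.02 and the median SE was 0.37. For 814 entries, 55.4%, the 95% interval of the fold change lay inside a 2-fold change in either direction. The share went up with abundance, to 226 of 261 entries (86.6%) with at least 100 CPM and to 72 of 78 (92.3%) with at least 1000 CPM. Inside the narrower limit of 1.5-fold lay 99 of all entries and 80 of the 261. For the remaining entries, mostly of low level, a 2-fold difference was not resolved in this fit of all 27 libraries. The count depends on the fit. Over 1213 shared entries, 767 intervals lay inside a 2-fold change here and 885 in a fit of the 9 libraries alone.

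**Figure D1:**
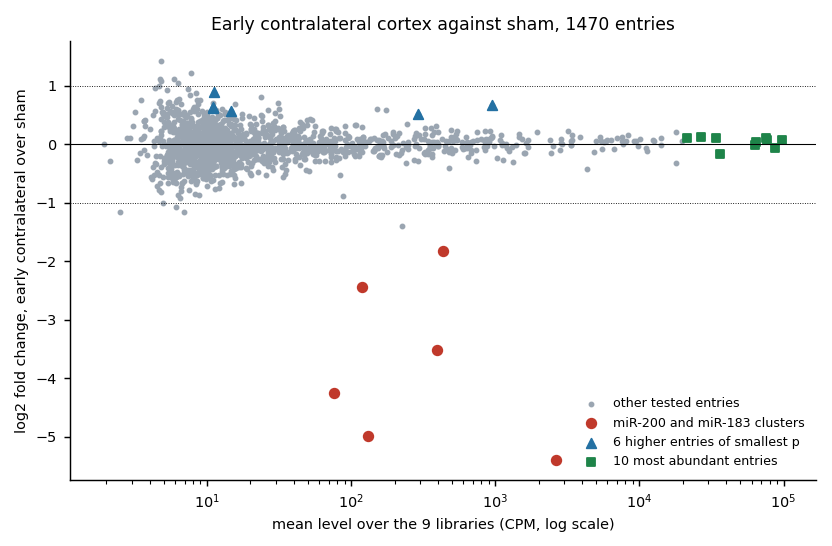
Log2 fold change of early contralateral over sham cortex against the mean level over the 9 libraries (CPM, log scale) for the 1470 tested entries, with dotted lines at a 2-fold change. The 10 most abundant entries (green squares) lie close to 0, and the 6 tested members of the miR-183 and miR-200 clusters (red circles) lie between -1.82 and -5.39.

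The most abundant miRNAs had similar levels in contralateral and sham cortex. miR-181a-5p, a regulator of synaptic and survival genes in brain, had 81980, 99050 and 125800 CPM as the lowest, median and highest of the 6 contralateral libraries, against 102700, 106100 and 74620 CPM in the 3 sham libraries. The groups overlapped throughout. Its log2 fold change was 0.08 with a 95% interval of -0.31 to 0.46. miR-128-3p, a neuronal miRNA that limits excitability, had 47520, 96150 and 114000 CPM as the lowest, median and highest contralateral values, against 60640, 104700 and 105900 CPM in sham. In both groups the lowest library was one of replicate 1. The log2 fold changes of all 10 most abundant miRNAs lay between -0.17 for miR-434-3p and 0.12 for miR-30a-5p, with SEs of 0.19 to 0.34.

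Of the 22 lists of miRNA families, clusters and cell type markers, none had a called member. The lists have 189 members, of which 173 were tested. Outside the miR-183 and miR-200 clusters the list medians lay between -0.10 and 0.19 on the log2 scale, beside -0.02 over all entries. On which side of 0 a list lies was not settled. The medians of all 22 lists changed sign when some library or replicate number was left out, and those of 4 (the miR-29 family, the oligodendrocyte list, miR-210 and the Dlk1-Dio3 cluster) also did so under at least 1 of the 3 other scalings.

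The let-7 family, abundant miRNAs tied to differentiation, had 10 tested members with a median log2 fold change of 0.08, 8 of them above 0 and 0 called. All 10 had an interval inside a 2-fold change. let-7c-5p had a mean of 18780 ± 2663 CPM in contralateral cortex (SD, n = 6) and 16340 ± 1526 CPM in sham cortex (SD, n = 3), which is 0.20 ± 0.17 (SE) on the log2 scale. Its members differ by few bases, as do those of miR-181, miR-30 and miR-29, and reads may be split between them, which leaves the value of any one member uncertain. The miR-30 family had a median of 0.05 over 5 members and the miR-181 family 0.06 over 4. miR-29a-3p, a brake on extracellular matrix genes, had 12590 ± 4026 CPM in contralateral and 12040 ± 3277 CPM in sham cortex, a log2 fold change of 0.06 ± 0.33.

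Of the neuronal miRNAs none was called, and most intervals lay inside a 2-fold change. The 14 neuron-enriched members had a median log2 fold change of 0.05, and 12 had an interval inside a 2-fold change. miR-124-3p, the most neuron-restricted of them, had 5457 ± 1744 CPM in contralateral and 4997 ± 1389 CPM in sham cortex, a log2 fold change of 0.13 ± 0.36. miR-132-3p, which neurons induce with activity through CREB, had 7672 ± 1189 CPM in contralateral and 7391 ± 986 CPM in sham cortex, a log2 fold change of 0.05 ± 0.23. The 4 entries of miR-132 and miR-212 all had an interval inside a 2-fold change. The imprinted Dlk1-Dio3 cluster, the largest miRNA cluster of neurons, had 23 of 50 tested members above 0, and 42 of the 50 intervals lay inside a 2-fold change.

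Injury and hypoxia miRNAs showed no call. miR-21a-5p, which many injured tissues induce, had 1574 ± 271 CPM in contralateral and 1473 ± 193 CPM in sham cortex, a log2 fold change of 0.09 ± 0.23. miR-210-3p, the main target of hypoxia-inducible factors among miRNAs, had 66.3 ± 21.4 CPM in contralateral and 56.9 ± 10.8 CPM in sham cortex, a log2 fold change of 0.22 ± 0.30 with an interval of -0.40 to 0.83. The groups overlapped for both. miR-34a-5p, a p53 target, had a log2 fold change of 0.30 ± 0.30. In its family 3 of the 6 tested members lay above 0 and 3 below, with a median of 0.02. The other arms miR-21a-3p and miR-210-5p lay below 0, at -0.35 ± 0.34 and -0.22 ± 0.39.

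Markers of other cells were also measured. In bulk tissue, fewer cells of a type and less RNA per cell cannot be told apart. The summed level of the 7 tested leukocyte and microglia miRNAs ran from 1747 to 3089 CPM in contralateral and from 2620 to 2772 CPM in sham libraries. Their median log2 fold change was 0.05, with 4 above 0 and 3 below, from -0.24 for miR-150-5p to 0.46 for miR-223-3p. Among them miR-223-3p, a myeloid and neutrophil miRNA, had 9.98, 13.9 and 27.6 CPM as the lowest, median and highest contralateral values, against 12.97, 9.61 and 11.1 CPM in sham. Its highest value came from 6 h replicate 2, the groups overlapped, and the log2 fold change of 0.46 ± 0.34 was not called. The 4 vascular miRNAs had a median of -0.10 and the 3 red blood cell miRNAs one of -0.04. The 3 tested oligodendrocyte miRNAs had a median of -0.006, with 1 above 0 and 2 below. Of these, miR-338-3p had a log2 fold change of 0.08 ± 0.40 and miR-219a-2-3p one of -0.17 ± 0.23.

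Choroid plexus miR-204-5p, abundant in the epithelium that secretes cerebrospinal fluid, was high in a single library. It had 2679, 2480 and 2292 CPM in the contralateral 3 h libraries and 7276, 3098 and 2685 CPM in the 6 h libraries (replicates 1 to 3), against 3011, 3331 and 2121 CPM in sham. Apart from 6 h replicate 1, the contralateral values lay within the sham range. miR-34c-5p, a miRNA of ciliated epithelium, had 853 CPM in the same library, against 183.3 to 370 CPM in the other contralateral libraries and 307 to 356 CPM in sham. The summed level of the 3 choroid plexus members was 7318 CPM there, 2319 to 3126 CPM in the other contralateral libraries, and 2146 to 3358 CPM in sham. The list's median log2 fold change over all 6 libraries was 0.19, with 0 called. The ipsilateral libraries of replicate 1 also had the 2 highest miR-204-5p values of their group, 6122 CPM at 3 h and 5339 CPM at 6 h.

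In the meninges and fibroblast list, miR-10b-5p, a Hox cluster miRNA that is low in forebrain, had the largest difference, at -1.40 ± 0.72 with an unadjusted p of 0.0636 and an edgeR adjusted p of 0.999. It had 34.9, 129 and 387 CPM as the lowest, median and highest contralateral values, against 818, 120 and 127 CPM in sham. Sham replicate 1 alone lay above the contralateral range. The other tested members of the list had values between -0.13 and -0.06.

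**Figure D2:**
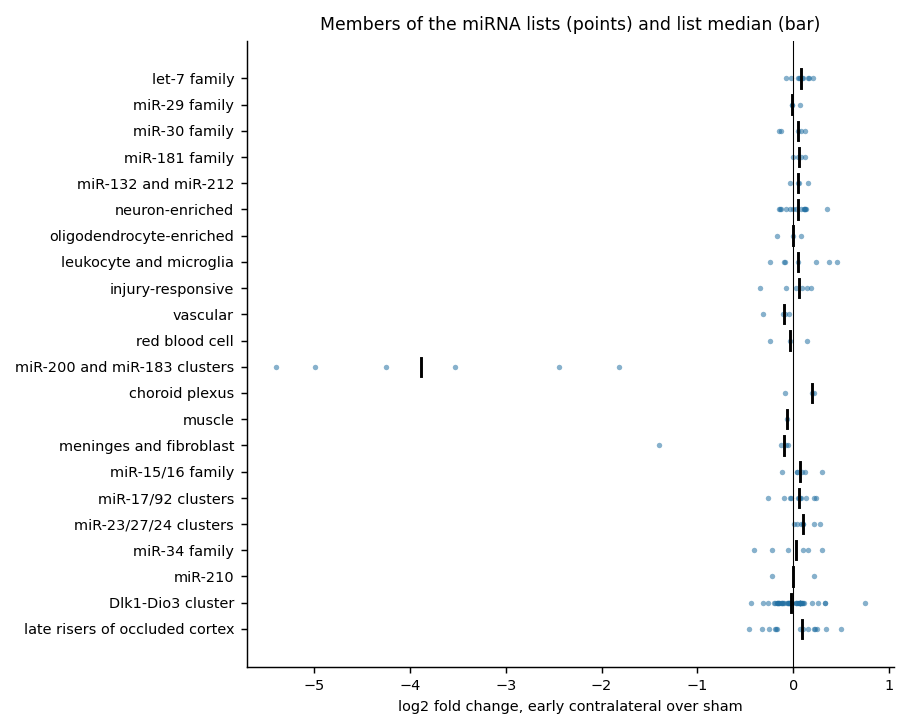
Log2 fold change of early contralateral over sham cortex for each tested member (points) of the 22 miRNA lists, with the list median as a bar. All medians but that of the miR-183 and miR-200 clusters lie between -0.10 and 0.19, and miR-10b-5p at -1.40 is the one point of the meninges and fibroblast list away from the rest.

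Among entries with a mean of at least 10 CPM, the 6 of smallest p in the lower direction were all members of the miR-183 and miR-200 clusters. All of these differences rested on 1 sham library. The miR-200 family keeps epithelial identity by repressing Zeb1 and Zeb2, and the miR-183 cluster is a miRNA group of sensory cells and sensory epithelia. miR-141-3p had 7.68, 11.3 and 15.5 CPM as the lowest, median and highest contralateral values, against 8.92, 1074 and 18.2 CPM in sham. Only sham replicate 2 was high, and the other sham libraries lay close to the contralateral ones. Its log2 fold change was -4.99 ± 1.00 (SE, edgeR adjusted p 0.0591).

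For miR-182-5p too, sham replicate 2 was the highest library. It had 73.5, 170 and 329 CPM as the lowest, median and highest contralateral values, against 143, 22410 and 87.9 CPM in sham, for a log2 difference of -5.39 ± 1.34 (edgeR adjusted p 0.247). The contralateral libraries spanned the values of sham replicates 1 and 3. miR-429-3p had 55.7, 77.5 and 165 CPM in contralateral cortex on the same 3 measures, against 57.5, 2884 and 82.8 CPM in sham, for a log2 difference of -3.53 ± 0.86 (edgeR adjusted p 0.231). The remaining members named by the rule were miR-200a-3p with a log2 fold change of -4.25 ± 1.06, miR-200b-3p with -2.45 ± 0.69 and miR-183-5p with -1.82 ± 0.57, with edgeR adjusted p-values of 0.231, 0.488 and 0.978.

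The cluster members that failed the filter followed the same library. miR-200c-3p had 1 to 6 counts in the contralateral libraries, against 4, 69 and 6 counts in sham. miR-96-5p had 2 to 13 counts in the contralateral libraries, against 5, 74 and 8 counts in sham. Together the 8 members held 0.0437% to 0.0724% of the counts in the contralateral libraries, against 0.0533%, 2.51% and 0.0473% in sham replicates 1, 2 and 3. The 95% Wilson interval of the share in sham replicate 2 was 2.49% to 2.54%, which covers counting error only. Outside this comparison, ipsilateral 6 h replicate 3 was high in members of these clusters too. It had 20220 CPM of miR-182-5p and 405 CPM of miR-141-3p. The other early ipsilateral libraries had 62.6 to 327 CPM and 2.16 to 18.1 CPM of them.

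Without sham replicate 2 the log2 fold changes were -0.21 for miR-141-3p, 0.64 for miR-182-5p, 0.32 for miR-429-3p, -0.29 for miR-200a-3p, -0.25 for miR-200b-3p and 0.30 for miR-183-5p, and 0 entries were called, with an edgeR adjusted p of at least 0.9996. Leaving out one of the other sham libraries had the opposite effect on the count. Without sham replicate 1 edgeR called 5 entries lower (miR-141-3p, miR-182-5p, miR-200a-3p, miR-200c-3p and miR-429-3p), and without sham replicate 3 it called 4 (the same entries other than miR-200a-3p).

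**Figure D3:**
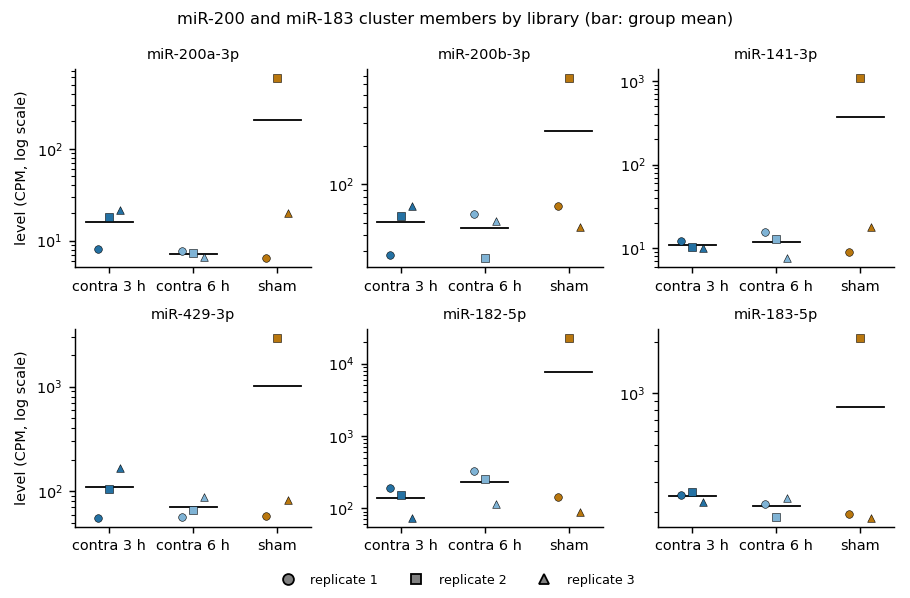
Level (CPM, log scale) of the 6 tested miR-183 and miR-200 cluster members in contralateral 3 h, contralateral 6 h and sham libraries, with the replicate number as the symbol and the group mean as a bar. In every panel sham replicate 2 (square) lies far above the other 8 libraries, which share 1 range.

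In the higher direction no entry was called either. The 6 entries of smallest p among those with a mean of at least 10 CPM had modest differences. Their mean contralateral level was above sham on every day of surgery. They were picked by p in these same libraries, so this is no separate support. miR-1957a had 637, 1238 and 1379 CPM as the lowest, median and highest contralateral values, against 651, 655 and 750 CPM in sham. Of the contralateral libraries, 5 lay above all sham libraries and 3 h replicate 1 lay below them. The log2 fold change was 0.66 ± 0.26 with an unadjusted p of 0.0152 and an edgeR adjusted p of 0.999. miR-6356 had 234, 320 and 418 CPM as the lowest, median and highest contralateral values, against 233, 219 and 224 CPM in sham. All 6 contralateral libraries lay above the sham libraries, the lowest by less than 1 CPM, and the log2 fold change was 0.52 ± 0.22 (edgeR adjusted p 0.999).

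miR-7661-3p, whose hairpin lies in an intron of the calcium channel gene Itpr1 with the mature strand at chr6:108489782-108489803 on the plus strand, had 10.3, 12.8 and 17.7 CPM as the lowest, median and highest contralateral values, against 6.48, 7.86 and 7.07 CPM in sham. The groups did not overlap, but the sham values are 7 to 9 counts a library. Its log2 fold change was 0.89 ± 0.36 (edgeR adjusted p 0.999). The other 3 were miR-137-5p, the minor arm of a neuronal hairpin, with a log2 fold change of 0.63 ± 0.32, miR-7676-5p with 0.62 ± 0.34 and miR-1966-5p with 0.57 ± 0.29, with means from 8.01 to 16.5 CPM and an edgeR adjusted p of 0.999. Within days, with the mean contralateral level of a day set against its own sham library, the log2 ratio of miR-1957a was 0.55, 0.71 and 0.72 on days 1, 2 and 3, and that of miR-6356 was 0.25, 0.55 and 0.71. For miR-1957a the day 1 ratio came from the 6 h library at 1268 CPM, as the 3 h library had 637 CPM against 651 CPM in sham. Being above sham on all 3 days was common, at 202 of 1470 entries (13.7%), and 161 (11%) were below it on all 3.

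**Figure D4:**
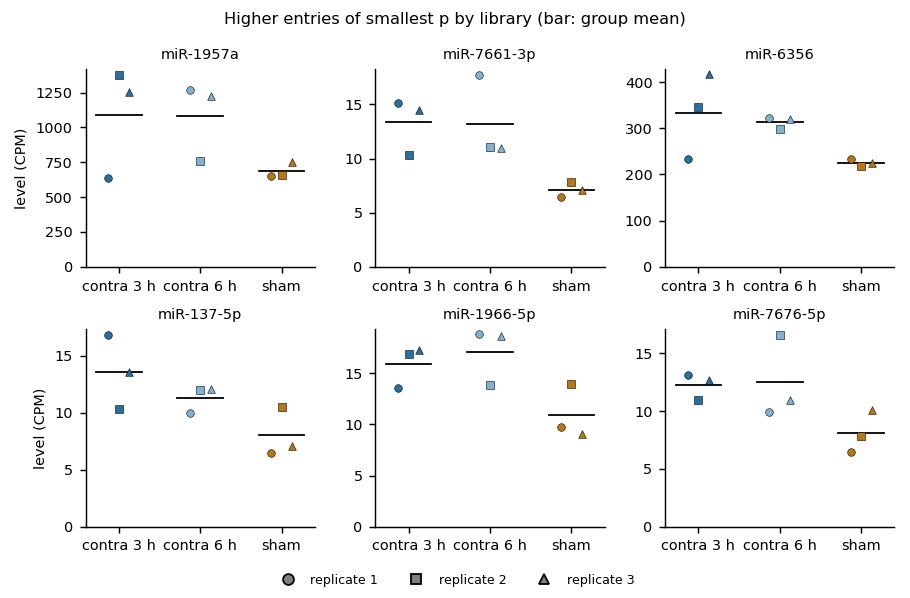
Level (CPM) of 6 higher entries in contralateral 3 h, contralateral 6 h and sham libraries, with the replicate number as the symbol and the group mean as a bar. They had the smallest p in that direction among entries with a mean of at least 10 CPM. Contralateral means lie above sham means in each panel, and none of the 6 entries was called.

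At the single times the picture was the same, and both comparisons share the 3 sham libraries. At 3 h edgeR called 0 entries against sham, with 26 (1.77%) at an unadjusted p under 0.05 and a smallest adjusted p of 0.998, and DESeq2 called 0 with 19 such entries. All 3 libraries of 3 h lay above all sham libraries for 57 entries (3.88%) and below them for 39 (2.65%). At 6 h edgeR called 0 entries against sham, with 34 (2.31%) at an unadjusted p under 0.05 and a smallest adjusted p of 0.9998, and DESeq2 called 0 with 27. All 3 libraries of 6 h lay above sham for 37 entries (2.52%) and below it for 91 (6.19%).

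The step between the pooled times was tested directly. Between 6 h and 3 h edgeR called 0 entries, with 41 (2.79%) at an unadjusted p under 0.05 and a smallest adjusted p of 0.996, and DESeq2 called 0 with 43. The 6 h libraries lay above all 3 h libraries for 63 entries (4.29%) and below them for 127 (8.64%). All 10 let-7 members had positive log2 fold changes against sham at 6 h, from 0.16 to 0.33, and 2 of 10 did at 3 h, from -0.31 to 0.17, none of them called. The scale bears on such small shifts: with library totals alone the median of all entries between 6 h and 3 h moved to -0.33, against -0.07 with TMM factors.

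Against the ipsilateral cortex of the same times, the contralateral cortex did differ, in 12 miRNAs. All 12 were lower in contralateral cortex, 0.816% of the 1470 entries, and 0% were higher (edgeR, adjusted p under 0.05). At an unadjusted p under 0.05 there were 92 entries (6.26%), and 1011 intervals (68.8%) lay inside a 2-fold change. The 6 libraries of each side did not overlap, contralateral below ipsilateral, for 16 entries (1.09%). The largest difference was that of miR-7687-3p, whose hairpin lies in an intron of Gse1. It had 5.52, 9.78 and 21.3 CPM as the lowest, median and highest contralateral values, 45.8, 134 and 168 CPM in ipsilateral cortex, and 11.4, 10.5 and 8.08 CPM in the sham libraries. Contralateral libraries lay around the sham values and below every ipsilateral library, with a log2 fold change to ipsilateral of -3.36 ± 0.62 (edgeR adjusted p 0.00498).

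miR-1934-5p had 14.9, 29.6 and 60.6 CPM as the lowest, median and highest contralateral values, 67.7, 223 and 662 CPM in ipsilateral cortex, and 44.6, 33.2 and 35.4 CPM in sham, for a log2 difference to ipsilateral of -3.01 ± 0.53 (edgeR adjusted p 0.00498). miR-701-5p, from an intron of Ttc28, had 9.87, 12.4 and 19.1 CPM in contralateral cortex on the same measures, 47.6, 64.5 and 328 CPM in ipsilateral cortex, and 12.97, 19.2 and 22.2 CPM in sham. Its log2 fold change to ipsilateral was -2.88 ± 0.53 (edgeR adjusted p 0.00498), and for both miRNAs no contralateral library reached the lowest ipsilateral one. miR-2861 and miR-3960, which in mouse arise from the Cdk9 locus and were described in osteoblast differentiation, had log2 fold changes of -2.53 ± 0.52 and -2.26 ± 0.47 (edgeR adjusted p 0.0114 for each).

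The other calls by size were miR-1893 at -2.72 on the log2 scale, miR-6968-5p with -2.62, miR-8109 with -2.36, miR-6538 with -2.05, miR-7009-3p with -1.95, miR-467d-5p with -1.82 and miR-5099 with -0.96. Of these, miR-6538, miR-7009-3p, miR-467d-5p and miR-5099 were named after their values were seen. With the day of surgery as a block, 12 entries were called lower, 10 of them among the 12 above, and miR-3473b and miR-7082-5p were called in addition (edgeR adjusted p 0.0400 and 0.0310, named after their values were seen). miR-6538 and miR-467d-5p then had edgeR adjusted p-values of 0.135 and 0.0522. The count fell to 5 without contralateral 3 h replicate 2, to 5 without contralateral 6 h replicate 2 and to 6 without ipsilateral 6 h replicate 3, and it was 0, 0 and 3 without replicate number 1, 2 and 3 in all groups.

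None of these 12 differed from sham in contralateral cortex by more than 0.46 on the log2 scale, and none was called there. A 2-fold difference was not resolved for most of them. The log2 difference from sham was 0.15 for miR-7687-3p with a 95% interval of -1.49 to 1.79, and -0.46 for miR-701-5p with an interval of -1.79 to 0.87. For miR-7009-3p, from an intron of the annexin gene Anxa5, it was -0.15 with an interval of -1.09 to 0.80. The interval lay inside a 2-fold change for 1 of the 12, miR-5099, and for 9 of the 12 in a fit of the 9 libraries alone. Among the 12 are 8 of the 14 late risers of ipsilateral cortex, a list chosen on these libraries and so no independent evidence.

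Most of the 8 called miRNAs with a RefSeq mature sequence were rich in G and C. Their median GC content was 76.6%, against 52.4% over the 1290 tested entries with a sequence. At least 70% GC was found in 5 of the 8, miR-7687-3p, miR-6968-5p, miR-2861, miR-8109 and miR-6538, against 79 of 1290 tested entries (6.12%). Below that lay miR-1934-5p with 60.9%, miR-7009-3p with 57.1% and miR-701-5p with 42.9%, the last under the median of the tested entries.

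**Figure D5:**
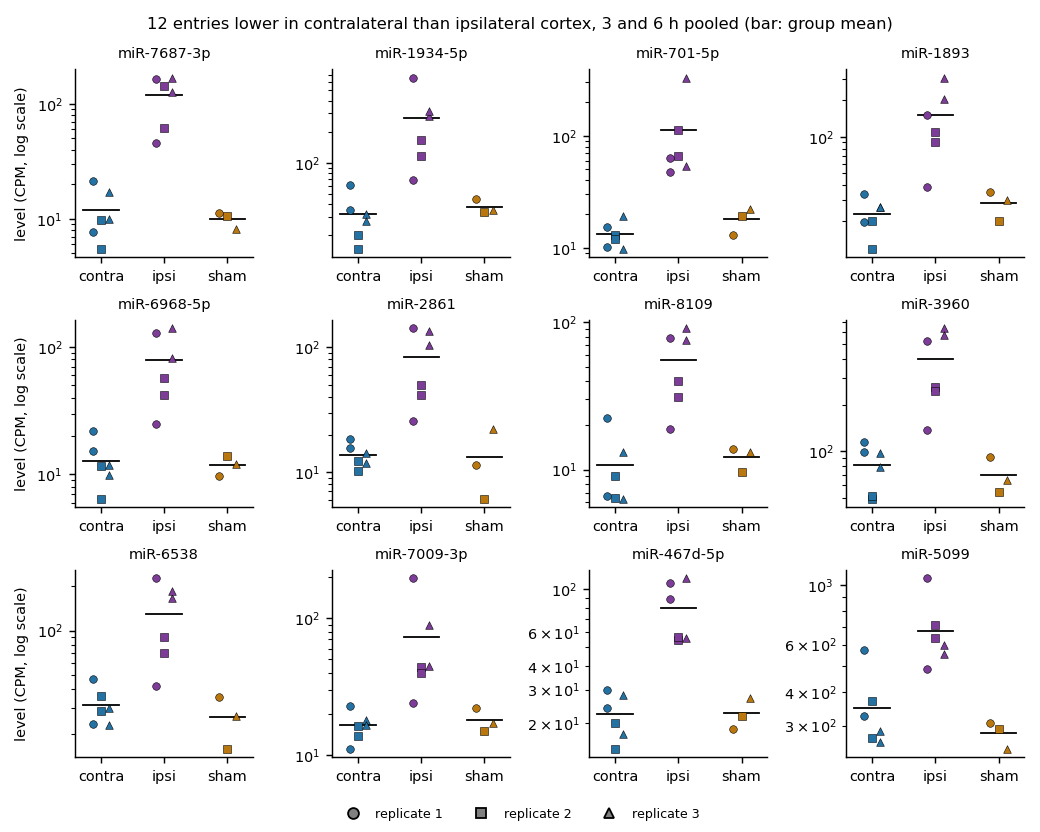
Level (CPM, log scale) of the 12 entries lower in contralateral than in ipsilateral cortex, with 3 and 6 h pooled, in contralateral, ipsilateral and sham libraries, with the replicate number as the symbol and the group mean as a bar. Contralateral and sham libraries overlap in each panel, and most ipsilateral libraries lie above it.

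Early and late contralateral cortex were compared last. Between the 6 early libraries and the 6 of 12 and 24 h edgeR called 0 entries, 0% of those tested, with 56 (3.81%) at an unadjusted p under 0.05, 47 higher and 9 lower in early cortex, and a smallest adjusted p of 0.66. DESeq2 called 0 with 44 at an unadjusted p under 0.05, and 959 of the edgeR intervals (65.2%) lay inside a 2-fold change. The early libraries lay above all late ones for 3 entries (0.204%) and below them for 0 (0%). Without contralateral 12 h replicate 1 edgeR called 1 entry.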

How the data were processed

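Small RNA libraries of cortex (Trizol RNA, TruSeq small RNA protocol, MiSeq, per the labels' protocols) were analysed from 1 table of raw counts deposited by the authors, with 1842 miRNA entries in 27 libraries. The submitters' processing notes list Novoalign and edgeR, with no role. The sources used here do not give the build or how reads with several matches were counted. No strand, sequence or coordinate is in the table.

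One model with a mean per group (9 groups of 3) was fitted with edgeR 4.0.16 in R 4.3.3 (TMM factors, filterByExpr, robust quasi-likelihood F test, 18 residual degrees of freedom). The 1470 entries left by the filter carried 99.9% of the counts. Benjamini-Hochberg adjustment ran over all of them in each of 6 comparisons. Fold changes are on the log2 scale with SE, and intervals are 95%. DESeq2 1.42.0, other scalings, filters, fits of fewer libraries, a replicate block and left-out libraries were the alternatives.

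Same-numbered libraries share a day of surgery, per the series' design text. Their deviations from the group means correlated at 0.31 on average over 9 pairs (0.15 to 0.52). The average of -0.15 over 18 pairs with different numbers follows from centring each group on its mean and adds no evidence. Whether hemispheres came from the same animal is not given. No pair of replicates agreed within sampling noise (smallest chi-square per degree of freedom 11.2).

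The members and lists were chosen with earlier results of these data known. Named entries are up to 12 calls per direction against sham, filled to 6 by smallest p with a mean of at least 10 CPM, up to 6 calls per direction of each other comparison, the 10 most abundant entries and list members. Of 189 list members, 181 were in the table, and the others were not analysed here.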

Additional observations from a re-analysis of the deposited data

Results flagged for a closer look

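Within the 6 early contralateral libraries, 12 of 184 named entries had 1 library whose gap to the next was over 0.625 of the whole range. Among sets of 6 independent, normally distributed values about 1 in 20 would pass this cut. These libraries differ in time and day of surgery and the values are CPM, so that rate may not hold here. In contralateral 6 h replicate 1 the flagged entries were miR-204-5p at 7276 CPM, miR-34c-5p at 853 CPM and miR-5099 at 574 CPM. In 6 h replicate 2 they were miR-25-3p at 701 CPM, miR-34c-3p at 31.3 CPM, miR-299a-3p at 30.4 CPM, miR-223-3p at 27.6 CPM and miR-449a-5p at 17.5 CPM. In 3 h replicate 2 they were miR-150-5p at 1535 CPM, miR-137-3p at 430 CPM and miR-667-3p at 254 CPM, all of them the highest of the 6 libraries. In 3 h replicate 3, miR-369-3p was the lowest of the 6 at 425 CPM.

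The changes of contralateral and ipsilateral cortex against the shared sham libraries differed for 12 entries, each with an edgeR adjusted p under 0.05 for the difference itself. The log2 differences, contralateral minus ipsilateral, were -3.36 for miR-7687-3p, -3.01 for miR-1934-5p, -2.88 for miR-701-5p, -2.72 for miR-1893, -2.62 for miR-6968-5p, -2.53 for miR-2861, -2.36 for miR-8109, -2.26 for miR-3960, -2.05 for miR-6538, -1.95 for miR-7009-3p, -1.82 for miR-467d-5p and -0.96 for miR-5099.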

How the results depend on the processing

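Between early contralateral and sham cortex edgeR called 0 entries under each planned scaling, filter and choice of libraries in the fit, DESeq2 called 0, and leaving out 1 library or 1 replicate number gave 0 to 5, all lower (5 without sham replicate 1, 4 without sham replicate 3). With the replicate block 0 entries were called, the smallest adjusted p was 0.9997, and against ipsilateral cortex the block ended the calls of miR-6538 and miR-467d-5p, added those of miR-3473b and miR-7082-5p, and changed no other call. Without sham replicate 2 the median of the miR-183 and miR-200 clusters was 0.04, against -3.89, and 15 of the other 21 list medians were above 0. Against ipsilateral cortex, where 12 entries were called, 5 were called with library totals, 5 with TMM factors from abundant entries and 19 with DESeq2 (adjusted p not given for 744 entries), and left-out libraries or replicate numbers gave 0 to 13. Against late contralateral cortex left-out libraries gave 0 to 1 calls. The 3 h, 6 h and 6 h against 3 h comparisons had 0 calls under every alternative run. In the fit of the 9 libraries alone 885 of 1215 intervals lay inside a 2-fold change. Library totals moved the median log2 fold change of all entries to 0.15 at 3 h, -0.17 at 6 h and -0.16 against ipsilateral cortex. Low-level entries rest on few counts, with 9 to 29 counts for the median entry of each of the 9 libraries.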
